A study of Mus musculus with 8 samples.

Results

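The genes of glycolysis, of lactate and of pyruvate entry into mitochondria were followed in mouse lung endothelial cells after an induced deletion aimed at a subunit of respiratory complex III. The set held 37 genes of the 43430 in the count table, chosen by symbol for their role: glucose uptake, the glycolytic enzymes and their PFKFB regulators, lactate dehydrogenases and lactate carriers, and the mitochondrial pyruvate carrier with pyruvate dehydrogenase, its kinases and its phosphatase. All 37 symbols were found, each in 1 row. Of these, 34 had enough counts to be tested, and Hk3, Pfkfb1 and Eno2, each at 0 in 6 of the 8 libraries, did not.

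RNA was sequenced from C57BL/6 mouse lungs collected at postnatal day 15, from cells sorted for the endothelial surface protein CD31. Wild-type (WT) and knockout (KO) groups held 4 libraries each. The knockout was a conditional, endothelial deletion of QPC, read here as the protein of Uqcrq, switched on by tamoxifen on postnatal days 0 to 4. The labels give tamoxifen for the WT samples too. The sources used here do not give the promoter that drives the recombinase, the exon removed or whether each library came from a separate animal. The p-values therefore reflect only the spread of these libraries, part of which may be technical.

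Glycolysis splits glucose into pyruvate in the cytosol. It yields ATP without oxygen and reduces NAD+ to NADH at the step of glyceraldehyde-3-phosphate dehydrogenase. Lactate dehydrogenase turns pyruvate into lactate and restores NAD+, while pyruvate that enters mitochondria is oxidised by pyruvate dehydrogenase, and the NADH made there is passed to the respiratory chain, of which complex III is a part. Endothelial cells are known to draw much of their ATP from glycolysis.

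The smallest library, WT replicate 3, held 6407924 counts and the largest, KO replicate 4, held 13981329. Values are given as CPM, read counts relative to the TMM-scaled size of the library. Uqcrq lay between 24.5 and 31.5 CPM in WT cells and between 1.59 CPM (KO replicate 1) and 15.6 CPM in KO cells, with no overlap (exact two-sided permutation p = 0.02857, the smallest that 4 against 4 can give), though it did not pass over all genes (edgeR adjusted p = 0.179). The 8 endothelial markers, Pecam1, Cdh5 and Kdr among them, summed to 13183 to 15470 CPM in WT cells and 11387 to 14801 CPM in KO cells, and 2 of them, Tek and Erg, were called lower by edgeR and limma voom. DESeq2 called Cdh5 lower too, at 3977 ± 299 CPM in WT and 3101 ± 444 CPM in KO libraries. Its groups did not overlap (edgeR adjusted p = 0.13). Emcn went the other way, at 324 ± 50.6 CPM in WT and 414 ± 42.8 CPM in KO libraries, with overlap (edgeR adjusted p = 0.242). These were the 4 endothelial markers with an unadjusted p below 0.05 in edgeR, and Tek, Erg, Cdh5 and Emcn were named after their values were seen. The median log2 fold change of the 8 markers was -0.03. Markers of alveolar type 2 cells, the surfactant-making epithelium, were abundant too. All 8 were detected, none was at 0 in any library, and they summed to 20997, 3608, 8780 and 15929 CPM across WT replicates 1 to 4 and to 3532, 10151, 15297 and 6370 CPM across KO replicates 1 to 4. The groups overlapped, and 0 of the 8 were called by edgeR, DESeq2 or limma voom or had an unadjusted p below 0.05. Markers of fibroblasts and mural cells summed to 287 to 1535 CPM in WT and 304 to 1416 CPM in KO, those of type 1 epithelium to 218 to 886 CPM over all libraries and those of myeloid cells to 379 to 2009 CPM. Of the last sum Lyz2, which type 2 cells also express, made up 374 to 2000 CPM, and the other 11 myeloid markers together 5.43 to 26.9 CPM. Pan-leukocyte, lymphocyte, platelet and erythroid markers reached at most 73.5 CPM per list in any library. No tested gene of these lists was called by any of the 3 tools, and 1, in the type 1 list, had an unadjusted p below 0.05. Only 5 of 12 myeloid, 2 of 8 lymphocyte, 4 of 6 platelet and 5 of 7 erythroid markers had enough counts to be tested. The markers of the other lists were all tested. In a bulk sample fewer cells of a type and less RNA per cell cannot be told apart.

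In KO cells 5 of the 34 tested genes rose and 1 fell (quasi-likelihood test of edgeR, p adjusted by Benjamini-Hochberg over 12689 genes, threshold 0.05). The risers were Gpi1, Gapdh, Pgk1, Eno1 and Pkm, of which all but Gpi1 act in the lower, ATP-yielding part of glycolysis, and the gene that fell was Pdk2, a kinase that switches pyruvate dehydrogenase off. Among all genes tested 3.63% were called, 2.25% higher and 1.39% lower. In 11 tested members all 4 KO libraries lay above all 4 WT libraries, and in 2 all lay below; over all genes tested 6.94% were separated upwards and 4.67% downwards. The median log2 fold change of the 34 members was 0.17, against 0.01 for all genes, with 20 members positive and 14 negative. An unadjusted p below 0.05 by edgeR was found in 14 of the 34 members. Over all 12689 genes tested 6475 were positive and 6214 negative, and 1931 had an unadjusted p below 0.05. The 37 genes together summed to 2729, 2165, 2348 and 2615 CPM across WT replicates 1 to 4 and to 3501, 3707, 3945 and 3621 CPM across KO replicates 1 to 4. Every KO library thus held more of these transcripts in sum than any WT library. The means were 2464 ± 255 CPM in WT cells and 3694 ± 188 CPM in KO cells (SD, n = 4 each). Abundant members weigh most in this sum, called ones such as Pkm among them. The pyruvate carrier and dehydrogenase genes summed to 299 ± 48.3 CPM in WT and 293 ± 9.8 CPM in KO cells. The dehydrogenase kinases and phosphatase summed to 106 ± 23.3 and 72.4 ± 9.47 CPM, with overlap, and every other role had a higher mean in KO. With each library's trend on exon length and GC content removed, 186 genes were called, 73 higher and 113 lower, against 285 higher and 176 lower without that step, and 3 members rose.

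**Figure D1:**
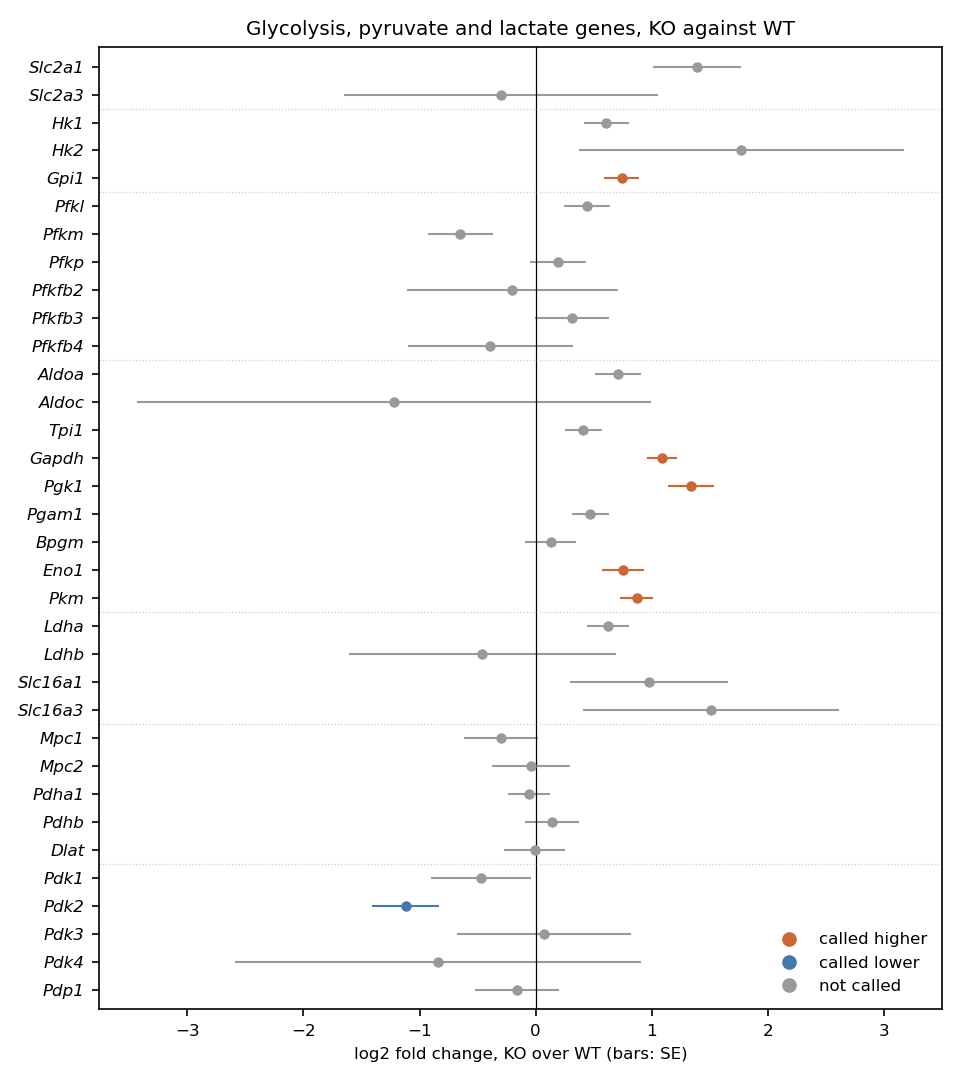
Log2 fold change of KO over WT (points) with its SE (bars) for the 34 tested genes, in the order of the pathway from glucose uptake at the top to the pyruvate dehydrogenase regulators at the bottom, with dotted lines between roles. The 5 genes called higher, in orange, have log2 fold changes from 0.74 to 1.34, and Pdk2, in blue, lies at -1.12.

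Per length of exon (RPKM, CPM per kilobase of all annotated exons of the gene together), the members spanned a wide range. This length can far exceed that of 1 transcript. For Gapdh it was 4133 bases, against 1420 for the principal transcript, so another length can change the order given here. In WT the highest were Ldha at 76.6 ± 20, Pkm at 73.7 ± 12 and Aldoa at 71.2 ± 23.2 RPKM (SD, n = 4 each), which differed by less than their spread. Pgam1, Gapdh, Gpi1 and Tpi1 followed at 53.4, 39.8, 36.3 and 33.1 RPKM. In KO the order at the top was Pkm at 134 ± 7.42, Ldha at 118 ± 21.5, Aldoa at 117 ± 21.7 and Gapdh at 84.6 ± 3.62 RPKM. Of the glucose transporters, the lactate carriers and the PFKFB enzymes none had a mean above that of Slc2a1 in KO, 10.1 ± 2.11 RPKM.

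Glucose enters endothelial cells through facilitative transporters. Slc2a1, which encodes GLUT1, measured 16.7, 5.95, 12.6 and 18.8 CPM across WT replicates 1 to 4 and 38.2, 32.7, 43.8 and 26.6 CPM across KO replicates 1 to 4. All 4 KO libraries were above the highest WT library, with means of 13.5 ± 5.66 and 35.3 ± 7.40 CPM (SD, n = 4 each). The log2 fold change was 1.39 (SE 0.38), and the call was narrowly missed (edgeR adjusted p = 0.0558, in a range from 0.0182 to 0.204 over 23 alternatives, 4 of which called it). Slc2a3, which encodes GLUT3, was low in both groups, at 5.15 ± 1.78 CPM in WT cells and 4.18 ± 3.75 CPM in KO cells, where replicate 1 held 0 counts (edgeR adjusted p = 0.975).

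Hexokinases trap glucose in the cell as glucose-6-phosphate, and glucose phosphate isomerase converts it to fructose-6-phosphate. Gpi1, the isomerase, measured 309, 191, 216 and 220 CPM across WT replicates 1 to 4 and 363, 422, 373 and 409 CPM across KO replicates 1 to 4. WT replicate 1 stood closest to the KO libraries, without reaching them. Gpi1 rose 1.67-fold (log2 fold change 0.74, SE 0.15, edgeR adjusted p = 0.0109). Hk1, the main hexokinase here, lay at 129, 122, 172 and 98.8 CPM in WT cells and at 260, 180, 173 and 180 CPM across KO replicates 1 to 4. The groups met almost at a point, WT replicate 3 at 172 and KO replicate 3 at 173 CPM, and the difference of 0.61 on the log2 scale (SE 0.19) missed the threshold (edgeR adjusted p = 0.102). Hk2, the inducible hexokinase, was scarce, at 1.76, 1.38, 4.93 and 0 CPM in WT cells and 10.9, 5.48, 6.01 and 5.14 CPM in KO cells. Its groups did not overlap either, but the spread at this level was wide and no call was made (log2 fold change 1.77, SE 1.40, edgeR adjusted p = 0.673). Hk3 was detected in WT replicate 1 and KO replicate 4 only, at 1.84 and 1.16 CPM. The call of Gpi1 was lost with the length and GC trend removed (adjusted p = 0.121) and without the pair WT replicate 3 and KO replicate 1 (0.0517), and held in the other 21 of 23 alternatives.

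Phosphofructokinase commits the sugar to glycolysis and has 3 genes, named for liver (Pfkl), muscle (Pfkm) and platelet (Pfkp). None was called by edgeR, DESeq2 or limma voom, with 2 genes of this group at an unadjusted p below 0.05 in edgeR, yet Pfkl and Pfkm lay apart in opposite directions. Pfkl measured 105, 95.0, 62.5 and 99.1 CPM in WT cells and 122, 109, 149 and 109 CPM across KO replicates 1 to 4, so that every KO library was above every WT library (log2 fold change 0.44, SE 0.20, edgeR adjusted p = 0.290). Pfkm measured 41.1, 45.6, 36.9 and 38.0 CPM in WT cells and 20.7, 18.6, 33.9 and 30.0 CPM in KO cells, with every KO library below every WT library (log2 fold change -0.65, SE 0.28, edgeR adjusted p = 0.279). Pfkp had 44.8 ± 9.33 CPM in WT cells and 51.2 ± 7.79 CPM in KO cells, and its groups overlapped. As a share of the summed per-length level of the 3 genes, a ratio within each library that does not depend on size factors, Pfkl made up 46.4 ± 5.30% in WT cells and 61.6 ± 4.35% in KO cells (SD, n = 4 each). Pfkm made up 42.0 ± 3.79% in WT cells and 25.6 ± 4.34% in KO cells, and Pfkp 11.6 ± 2.39% and 12.9 ± 1.61%. The shares of Pfkl ran from 39.4% to 51.8% in WT cells and from 56.2% to 66.3% in KO cells, and those of Pfkm from 38.3% to 46.6% and from 21.5% to 30.8%, without overlap in either. A share shows unequal change of the genes, not which of them changed, and it was not tested. Over 10 isoform families compared in this way, no other member had shares that did not overlap. With the length of the longest transcript in place of all exons the mean share of Pfkl was 55.4% in WT cells and 69.0% in KO cells and that of Pfkm 32.6% and 18.6%. Of the exon bases of Pfkm 10.7% overlap other genes, Gm26513 and Senp1, and the sources used here do not say whether counting used the strand.

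**Figure D2:**
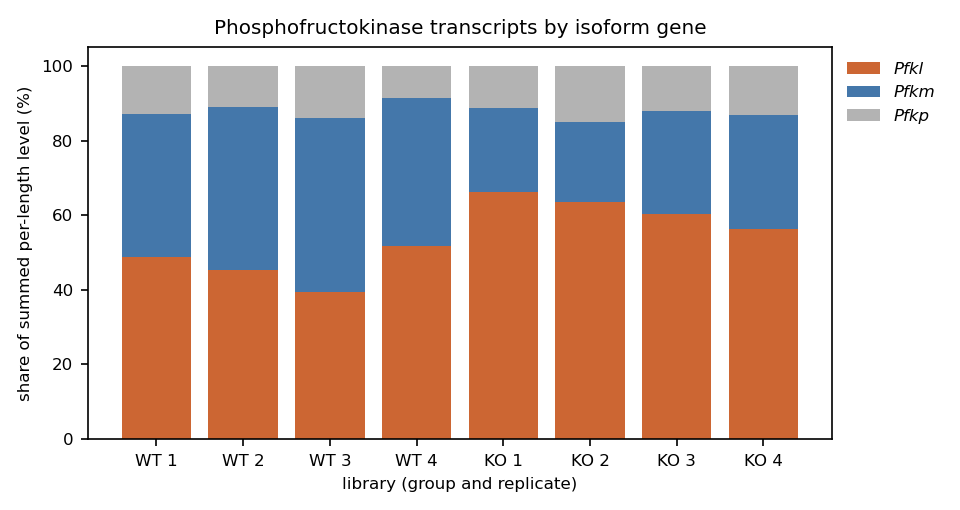
Share of each phosphofructokinase gene in the summed per-length level of Pfkl, Pfkm and Pfkp (%, stacked bars from 0 to 100), 1 bar per library. Pfkm takes 38.3% to 46.6% of the WT bars and 21.5% to 30.8% of the KO bars, and Pfkl takes the larger part in KO.

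The PFKFB enzymes make and break fructose-2,6-bisphosphate, the strongest activator of phosphofructokinase, and Pfkfb3 is the form best known from sprouting endothelium. Pfkfb3 had the highest mean of them per length in both groups, though Pfkfb4 was above it in WT replicate 1 (50.6% of the family against 31.6%). It measured 31.2 ± 14.1 CPM in WT cells and 38.6 ± 4.49 CPM in KO cells (edgeR adjusted p = 0.784). Its WT libraries alone ran from 17.3 to 50.8 CPM, a range that held all 4 KO libraries. Pfkfb2 and Pfkfb4 had means between 6.51 and 11.2 CPM in both groups, with adjusted p of 0.976 and 0.909 by edgeR. Pfkfb1 had 0 counts in every WT library and was detected in KO replicates 2 and 4, at 1.57 and 3.4 CPM.

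From aldolase to pyruvate kinase the pathway splits the hexose and recovers ATP, and 4 of the 9 tested genes of this stretch rose and 0 fell, with a median log2 fold change of 0.71. Together these genes summed to 1016 to 1336 CPM in WT cells and 1943 to 2122 CPM in KO cells. Gapdh, the NADH-forming step, measured 168, 153, 172 and 166 CPM across WT replicates 1 to 4 and 343, 342, 372 and 342 CPM across KO replicates 1 to 4. Both groups were tight and far apart, and Gapdh had the smallest p of the set, with a 2.12-fold rise (log2 fold change 1.09, SE 0.13, edgeR adjusted p = 0.000207). Pgk1, phosphoglycerate kinase and the first ATP-yielding enzyme, measured 54.4, 43.9, 40.2 and 43.6 CPM in WT cells and 140, 106, 101 and 116 CPM in KO cells. The lowest KO library held more than any WT library, and Pgk1 had the largest rise among the called members, 2.54-fold (log2 fold change 1.34, SE 0.20, edgeR adjusted p = 0.00111). Pkm, pyruvate kinase of the M type and the second ATP-yielding enzyme, measured 414, 378, 282 and 401 CPM in WT cells and 651, 634, 687 and 717 CPM in KO cells. WT replicate 3, the shallowest library, was the lowest, and the groups were well apart, with a rise of 1.82-fold (log2 fold change 0.87, SE 0.14, edgeR adjusted p = 0.00221). Counts per gene do not separate the M1 and M2 splice forms of Pkm. Eno1, enolase, measured 102, 84.6, 103 and 144 CPM in WT cells and 156, 214, 181 and 178 CPM in KO cells. WT replicate 4 came close to KO replicate 1, and the rise was 1.68-fold (log2 fold change 0.75, SE 0.18, edgeR adjusted p = 0.0309). Gapdh, Pgk1 and Pkm were called under all 23 alternatives. Eno1 was called under 14, and among the settings that ended the call were removal of the length and GC trend (adjusted p = 0.137), the fit without the pair WT replicate 3 and KO replicate 1 (0.0651), and the fits without any 1 library but WT replicate 4 and KO replicate 1 (0.0682 to 0.12).

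**Figure D3:**
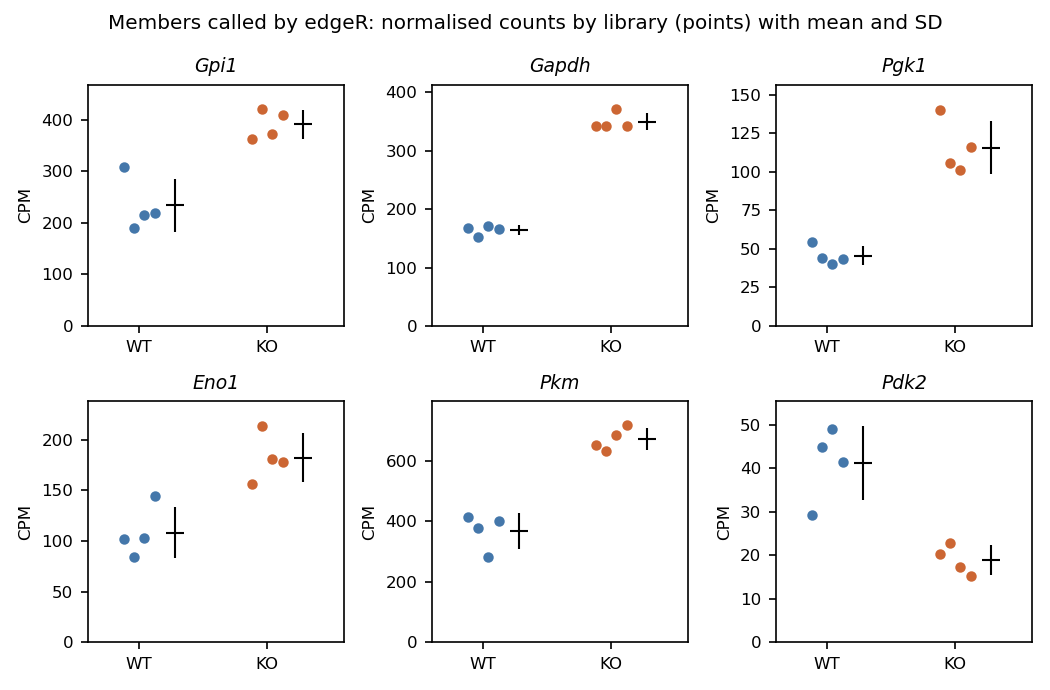
CPM of the 6 called genes in each library (points, replicates 1 to 4 from left to right within a group), with the mean and SD of each group as a cross beside the points; every axis starts at 0. The WT and KO points do not overlap in any panel, and Pdk2 is the gene whose KO points, from 15.2 to 22.9 CPM, lie below the WT points.

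Aldoa, the main aldolase, did not pass, at 213, 168, 148 and 300 CPM in WT cells and 343, 328, 421 and 268 CPM across KO replicates 1 to 4. WT replicate 4 overlapped the KO libraries (log2 fold change 0.71, SE 0.20, edgeR adjusted p = 0.0694), and the call was gained without that library (0.0161). Tpi1, triose phosphate isomerase, lay at 94.5, 86.4, 88.2 and 95.6 CPM in WT cells and 113, 121, 124 and 127 CPM in KO cells. Its groups were narrow and did not overlap, but the log2 fold change was small at 0.41 (SE 0.16, edgeR adjusted p = 0.197). Pgam1, phosphoglycerate mutase, was alike, with 125, 90.5, 97 and 111 CPM in WT cells and 136, 154, 145 and 153 CPM in KO cells (log2 fold change 0.47, SE 0.16, edgeR adjusted p = 0.136). Bpgm, which makes 2,3-bisphosphoglycerate in a side branch, had 71 ± 15.5 CPM in WT cells and 77.7 ± 14.0 CPM in KO cells, with overlap (edgeR adjusted p = 0.895). Aldoc had 2.16 ± 2.61 CPM in WT cells and 0.923 ± 1.17 CPM in KO cells, with 0 counts in 4 libraries (edgeR adjusted p = 0.906), and the neuronal enolase gene Eno2 at no more than 1.03 CPM in any.

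**Figure D4:**
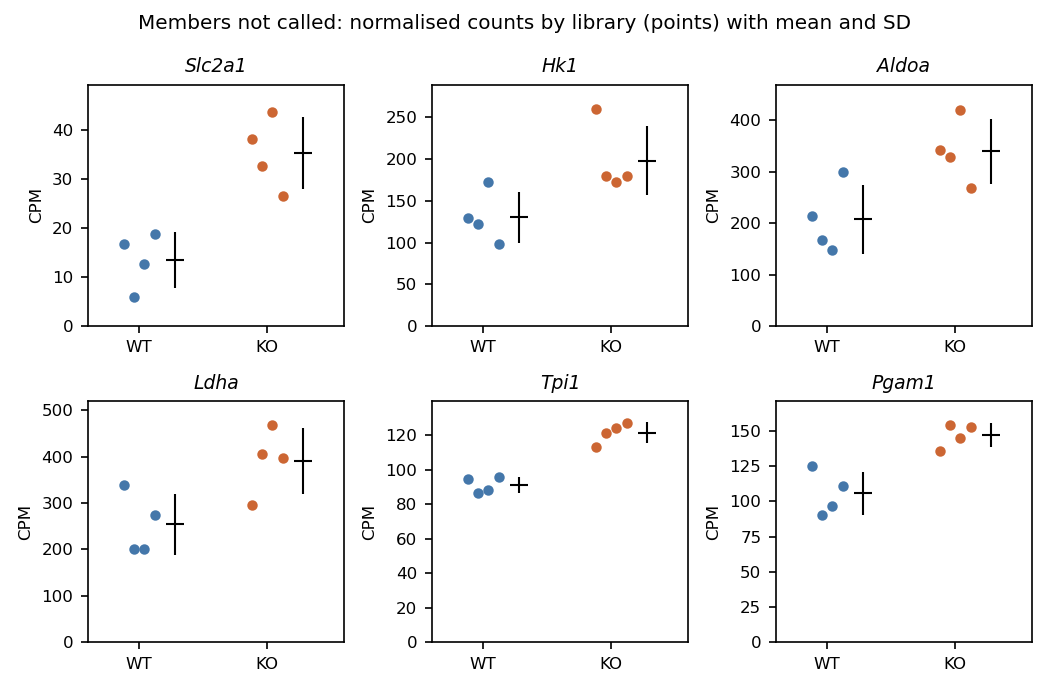
CPM of 6 genes that were not called, in each library (points, replicates 1 to 4 from left to right within a group), with the mean and SD of each group as a cross; every axis starts at 0. The groups of Slc2a1, Hk1, Tpi1 and Pgam1 do not overlap, and those of Aldoa and Ldha do, through WT replicates 4 and 1.

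Several of these enzymes have many processed pseudogenes, and reads that fit a copy equally well can be dropped or counted elsewhere. Of the 50-base windows along the principal transcript, 82.5% for Gapdh, 72.2% for Eno1, 68.0% for Pgk1, 34.4% for Pkm and 25.3% for Gpi1 had an exact match in an annotated transcript of another gene, so that the levels of these genes are uncertain. The 93 rows of the count table that share at least 5% of Gapdh windows, 88 of them pseudogenes, summed to 42.1 ± 14.0 CPM in WT cells and 45.0 ± 8.56 CPM in KO cells (SD, n = 4 each). With these rows added, Gapdh measured 207 ± 18.2 and 395 ± 17.7 CPM, a ratio of 1.91 in place of 2.12. By the same 5% limit Pgk1 and Eno1 had 2 such rows each. Those of Pgk1 held 0 counts in every library, and those of Eno1 a mean of 0.0209 CPM in WT cells and 0.0234 CPM in KO cells. Reads dropped in counting would not appear in such rows, so these values do not show how many were lost. Pdk2 and Pfkm had no such window. Of the other genes with a match, 192 of 222 for Gapdh, 4 of 9 for Eno1 and 2 of 5 for Pgk1 were pseudogenes. For Pkm 3 of 8 were pseudogenes, and for Gpi1 3 of 122. Of the exon bases of Pkm 15.3% and of Gpi1 11.5% overlap another annotated gene. Windows that match such an overlapping gene are included in the shares above.

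The 6 called genes lie on 6 chromosomes (GRCm38, the build called mm10). Pgk1 spans chrX:106187100-106203699 on the plus strand, Gapdh chr6:125161715-125166467 on the minus strand, Pkm chr9:59656368-59679375 on the plus strand, Eno1 chr4:150236721-150248879 on the plus strand, Gpi1 chr7:34201330-34230336 on the minus strand and Pdk2 chr11:95026258-95041354 on the minus strand. The 250 bases before the RefSeq start (GRCm38.p6) are shown for the riser with the largest fold change, the riser with the smallest p and the gene that fell, 5′ to 3′ on the strand of the gene and ending at the base before the start. Capitals mark ACGTG, a form of the core bound by hypoxia-inducible factors, and CACGTG, the E-box bound by MYC and related factors. Both were searched on both strands, and other forms of the core were not searched. A match on the other strand to ACGTG reads CACGT. The RefSeq start of Gapdh lies inside the span that GENCODE gives the gene.
Pgk1 promoter, chrX:106186850-106187099, plus strand: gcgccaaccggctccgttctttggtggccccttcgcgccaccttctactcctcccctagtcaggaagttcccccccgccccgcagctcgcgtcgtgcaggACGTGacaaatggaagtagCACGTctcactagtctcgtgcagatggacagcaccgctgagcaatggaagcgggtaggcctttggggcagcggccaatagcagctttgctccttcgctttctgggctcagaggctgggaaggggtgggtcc
Gapdh promoter, chr6:125165774-125166023, minus strand: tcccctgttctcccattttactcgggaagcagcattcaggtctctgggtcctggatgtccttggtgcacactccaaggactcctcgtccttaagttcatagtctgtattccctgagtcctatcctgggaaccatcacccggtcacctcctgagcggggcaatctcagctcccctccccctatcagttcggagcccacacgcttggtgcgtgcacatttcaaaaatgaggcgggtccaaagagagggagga
Pdk2 promoter, chr11:95041372-95041621, minus strand: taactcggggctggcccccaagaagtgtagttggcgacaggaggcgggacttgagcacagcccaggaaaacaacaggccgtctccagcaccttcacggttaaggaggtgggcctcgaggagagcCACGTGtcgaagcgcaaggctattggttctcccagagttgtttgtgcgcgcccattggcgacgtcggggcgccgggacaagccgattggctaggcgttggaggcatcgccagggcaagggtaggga

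Pgk1 held 2 ACGTG matches, starting 150 and 131 bases before the start, and Pdk2 held 1 CACGTG, starting 126 bases before it and counted as 2 overlapping ACGTG matches. The windows read for Gapdh, Pkm, Eno1 and Gpi1 held neither motif. For each member only the start window nearest the GENCODE gene start was read. Pfkm had 4 start windows, Eno1 3, Pkm, Ldha and Pdk2 2 each, and Gapdh, Gpi1, Pgk1 and Slc16a1 1 each. Over the 35 members with a start window, 13 (37.1%) held ACGTG and 4 (11.4%) held CACGTG, the 4 being Pfkm, Ldha, Slc16a1 and Pdk2. Over all 32851 windows of this length, where a gene can have several while each member gave 1, the shares were 16.6% and 6.02%. The pattern TGATGNAAN of the C/EBP-ATF response element, bound by ATF4 and its partners and searched on both strands, was in 0 of 35 windows and in 3.44% of all windows. These matches describe letters in the windows, and binding was not measured. Slc2a3 and Pdp1 had no matched window.

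Lactate dehydrogenases and the monocarboxylate carriers that take lactate across the membrane gave 0 calls among 4 genes by edgeR and by limma voom and 1 by DESeq2, Ldha, which was also the 1 gene at an unadjusted p below 0.05 in edgeR. Ldha, the A subunit, measured 338, 202, 200 and 275 CPM across WT replicates 1 to 4 and 295, 405, 467 and 397 CPM across KO replicates 1 to 4. KO replicate 1 lay within the range of WT, and the difference of 0.62 on the log2 scale (SE 0.18) missed the threshold (edgeR adjusted p = 0.0790, in a range from 0.00371 to 0.279 over 23 alternatives, 7 of which called it). The call was gained without WT replicate 1 (adjusted p = 0.0278) and without KO replicate 1 (0.0369). Ldhb, the B subunit, was lower and scattered, at 17.0 ± 14.4 CPM in WT cells and 12.3 ± 11.2 CPM in KO cells, with 0 counts in KO replicate 1. Ldha made up 88.7 ± 7.61% of the per-length level of the pair in WT and 94.5 ± 4.51% in KO cells, with overlap. Slc16a1, which encodes MCT1, had 8.19 ± 5.31 CPM in WT cells and 16.1 ± 9.47 CPM in KO cells (edgeR adjusted p = 0.6). Slc16a3, which encodes the lactate exporter MCT4, had 3.85 ± 2.95 CPM in WT cells, where replicate 2 held 0 counts. In KO cells Slc16a3 had 10.9 ± 4.95 CPM (edgeR adjusted p = 0.627). DESeq2 gave no adjusted p for Slc16a1 or Slc16a3.

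The level of Ldha broadly moved with the alveolar type 2 markers within each group, but not with these alone. In WT, Ldha was 338 and 275 CPM in replicates 1 and 4, whose markers summed to 20997 and 15929 CPM, and 202 and 200 CPM in replicates 2 and 3, with 3608 and 8780 CPM. In KO it was lowest in replicate 1 and highest in replicate 3, as were the markers. Aldoa and Slc2a1 were likewise highest in WT replicates 1 and 4 and in KO replicate 3, but lowest in KO replicate 4. Y-linked transcripts also divided the libraries, being high in WT replicates 1 and 4 and in KO replicates 2 and 4 and low in the others, so that in WT they moved with Ldha as the type 2 markers did. With the Y-linked level as a covariate Ldha was called (edgeR adjusted p = 0.0413). The part of any of these levels in that of Ldha was not tested further. With the type 2 marker level as a covariate, Ldha had an adjusted p of 0.00371, Aldoa of 0.0144 and Slc2a1 of 0.0182 by edgeR. In that fit 8 members rose in place of 5, and over all genes 339 rose in place of 285. Gapdh was 153 to 172 CPM over the whole range of marker levels in WT.

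**Figure D5:**
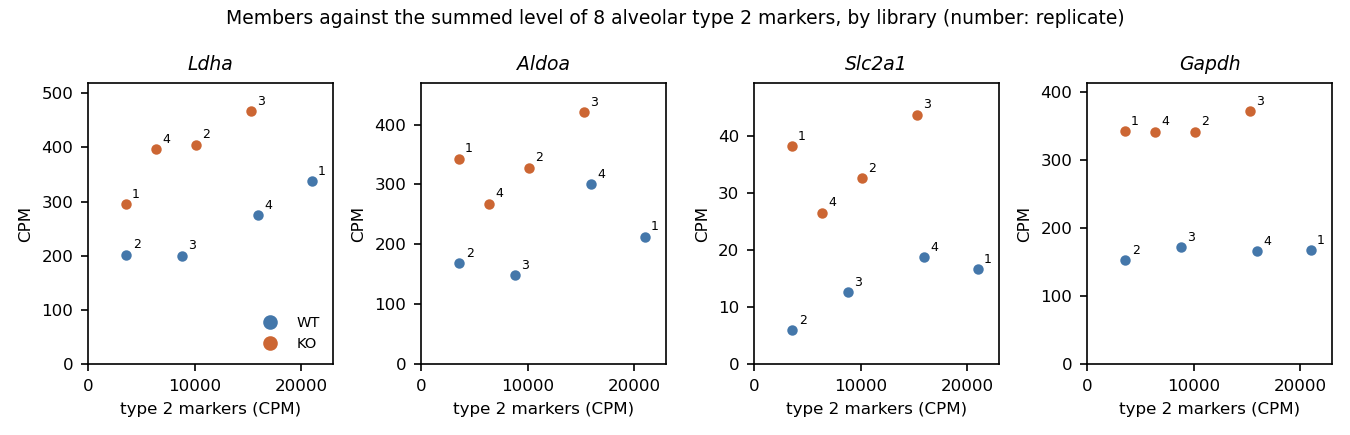
CPM of Ldha, Aldoa, Slc2a1 and Gapdh against the summed level of 8 alveolar type 2 markers (CPM) in each library, WT in blue and KO in orange, with replicate numbers; vertical axes start at 0. Ldha spreads from 200 to 338 CPM over the WT libraries, while Gapdh stays between 153 and 172 CPM in WT cells and between 342 and 372 CPM in KO cells.

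The mitochondrial pyruvate carrier and the subunits of pyruvate dehydrogenase gave 0 calls among 5 genes by edgeR, DESeq2 and limma voom, and 0 at an unadjusted p below 0.05 in edgeR. Their median log2 fold change was -0.04, and together they summed to 240 to 353 CPM in WT cells and 279 to 301 CPM in KO cells, the KO libraries all lying inside the WT range. Mpc1, a carrier subunit with the smallest p of the 5, measured 26.3, 23.7, 64.3 and 40.8 CPM in WT cells and 27.9, 28.7, 38.3 and 30.8 CPM in KO cells. The groups overlapped fully, WT replicate 3 being the highest (log2 fold change -0.30, SE 0.32, edgeR adjusted p = 0.804). Mpc2, the other carrier subunit, had 35.0 ± 13.9 CPM in WT cells and 34.0 ± 10.5 CPM in KO cells. Pdha1 and Pdhb, the subunits of the decarboxylase, had 108 ± 17.8 and 66.2 ± 17.7 CPM in WT cells and 104 ± 11.9 and 73.1 ± 9.91 CPM in KO cells. Dlat, the acetyltransferase core, had 51.4 ± 10.1 CPM in WT cells and 50.9 ± 14.5 CPM in KO cells, with a log2 fold change of -0.01 (SE 0.26).

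Pyruvate dehydrogenase kinases phosphorylate and inactivate the enzyme, and Pdp1 encodes a phosphatase that reverses this. Pdk2 measured 29.2, 44.9, 48.9 and 41.4 CPM across WT replicates 1 to 4 and 20.3, 22.9, 17.3 and 15.2 CPM across KO replicates 1 to 4. All KO libraries were below the lowest WT library, replicate 1, and the means were 41.1 ± 8.50 and 18.9 ± 3.36 CPM (SD, n = 4 each). Pdk2 fell by 1.12 on the log2 scale (SE 0.29, edgeR adjusted p = 0.0467). The call stood close to the threshold: it held in 10 of 23 alternatives, with an adjusted p from 0.00724 by DESeq2 to 0.142 without KO replicate 3, and leaving out any 1 library but WT replicate 1 ended it (0.0619 to 0.142). Its log2 fold change stayed between -1.27 and -1.02 throughout. Pdk1, the kinase known as a hypoxia target, had 25.3 ± 4.67 CPM in WT cells and 18.3 ± 10 CPM in KO cells (edgeR adjusted p = 0.748). Pdk3 had 10.3 ± 5.36 CPM in WT cells and 10.8 ± 6.61 CPM in KO cells, and Pdk4, known from fasting, had 0 counts in 3 libraries and means of 6.39 ± 8.44 and 3.54 ± 2.59 CPM (edgeR adjusted p = 0.989 for Pdk3 and 0.919 for Pdk4). Pdp1 had 23.3 ± 2.19 CPM in WT cells and 20.8 ± 7.68 CPM in KO cells (edgeR adjusted p = 0.926). Per length, Pdk2 made up 60.4 ± 7.2% of the 4 kinases in WT and 48.5 ± 22.3% in KO cells, where replicate 1 alone reached 81.4%, so the shares overlapped.

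Over 4 lists of neighbouring genes outside the set edgeR called 1 of 46 tested genes (2.17%, against 3.63% of all genes). In the lists of other glycolysis isoforms and of other lactate and pyruvate genes no gene was called by edgeR, DESeq2 or limma voom, and 0 had an unadjusted p below 0.05 in edgeR. Of 19 other glycolysis isoforms and regulators 11 were tested, with a median log2 fold change of 0.05; the smallest p belonged to Eno3, the muscle enolase, at 0.309 ± 0.617 CPM in WT cells and 4.93 ± 1.99 CPM in KO cells (edgeR adjusted p = 0.373). Of 18 other lactate and pyruvate genes 13 were tested, with a median of 0.04, and Pdpr, a regulatory subunit of the phosphatase, had 26.3 ± 3.20 CPM in WT cells and 16.2 ± 7.81 CPM in KO cells (edgeR adjusted p = 0.444). Of 16 genes of gluconeogenesis and glycogen 12 were tested and 0 called by edgeR (3 at an unadjusted p below 0.05), with a median of 0.29. The nearest to the threshold, called by DESeq2 and by limma voom, was Pck2, the mitochondrial phosphoenolpyruvate carboxykinase, at 57.0 ± 20.7 CPM in WT cells and 111 ± 21.8 CPM in KO cells (log2 fold change 0.97, SE 0.26, edgeR adjusted p = 0.0515). Of the 10 genes of the shuttles that carry cytosolic NADH electrons into mitochondria all were tested and 1 rose, with a median of 0.04. It was Got1, the cytosolic aspartate aminotransferase of the malate-aspartate shuttle, which measured 1.67, 4.40, 7.47 and 7.08 CPM in WT cells and 42.5, 19.7, 40.5 and 16.2 CPM in KO cells (log2 fold change 2.53, SE 0.53, edgeR adjusted p = 0.0123). Of the 10 genes 3 had an unadjusted p below 0.05 in edgeR, DESeq2 called Got1 and Got2, and limma voom called 0.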

How the data were processed

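Raw read counts per gene were deposited by the authors for 8 libraries of CD31-sorted lung endothelial cells, 4 WT and 4 KO, and all value columns matched a label (0 were left over). The authors worked on build mm10 with TopHat, HTSeq, edgeR and bcl2fastq, per the submitters' processing notes. The sources used here give no versions, annotation release, strand setting or filters. Of 43430 gene IDs, 42462 had a symbol in GENCODE M21 (GRCm38). Counts were filtered with filterByExpr (minimum count 10, minimum total 15), normalised by TMM and compared with edgeR 4.0.16 (quasi-likelihood F test, R 4.3.3, robust, genotype only) over 12689 genes, with Benjamini-Hochberg adjustment at 0.05. SE was derived from the F statistic, and the common biological coefficient of variation was 63.5%. The 23 alternatives used other size factors and filters, DESeq2 1.42.0, limma voom 3.58.1, covariates, thinning, removal of the length and GC trend and fewer libraries. An adjusted p was given in only 22 of them for Slc2a3, Hk2, Pfkfb2, Pfkfb4, Slc16a1, Slc16a3, Pdk3 and Pdk4 and in 20 for Aldoc. Principal transcript lengths for isoform shares were added after seeing the data.

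The members and lists were chosen with earlier results of these data known. The genes given in every library are those called, the smallest p of each role and uncalled members whose groups do not overlap; Aldoa was added after its values were seen. Of the other lists the called genes and the smallest p were named. Copies were sought in annotated transcripts, as no genome sequence was used. Replicates of a group differed by more than sampling noise, with 34.4 to 77.1 as chi-square per degree of freedom. Reads carry no molecular identifiers. The pipeline was tested on simulated counts.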

Additional observations from a re-analysis of the deposited data

Results flagged for a closer look

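In 4 of the 68 groups of 4 libraries examined (34 tested genes in each genotype), 1 library stood apart from the other 3 by more than Dixon's 95% limit, where chance gives about 1 in 20. Hk1 was 260 CPM in KO replicate 1 against 173 to 180 CPM in the others, and Hk2 was 10.9 CPM in the same library against 5.14 to 6.01 CPM. Gapdh was 372 CPM in KO replicate 3 against 342 to 343 CPM, a small gap in a narrow group, and Pfkfb2 was 0.796 CPM in KO replicate 4 against 8.23 to 8.69 CPM. KO replicate 1 also had the lowest Uqcrq, at 1.59 CPM.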

How the results depend on the processing

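Against 5 genes higher, 9 were called without a low-count filter, 8 by DESeq2, 9 with edgeR's legacy = FALSE option, 8 with the alveolar type 2 level as a covariate, 3 with the length and GC trend removed, 3 without the pair WT replicate 3 and KO replicate 1, and 4 to 6 without any 1 library. The 1 lower call became 0 by limma voom, with the Y-linked covariate, under the replicate block, with the length and GC trend removed, when thinned to one depth and with WT replicate 3 and KO replicate 1 left out, and was 0 to 1 without any 1 library. Over all genes 461 calls became 788 by DESeq2, 747 with legacy = FALSE, 186 with the length and GC trend removed, which moved the median log2 fold change of all genes from 0.01 to -0.10, and 270 to 446 without any 1 library (270 without KO replicate 3). Same-numbered libraries did not deviate together (correlations -0.0956, -0.115, 0.00284 and -0.00653), so the numbers were not taken as pairs; with the replicate block 4 members rose and 338 genes were called, and the members whose calls ended were Eno1 (edgeR adjusted p = 0.0648) and Pdk2 (0.109).

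Log2 fold changes that turned sign were those of genes far from the threshold. Pdk4 had 1.58 by limma voom, 0.81 with the Y-linked covariate, 0.08 with the block and 0.87 without both libraries. Dlat had 0.0038 with legacy = FALSE and 0.15 without both libraries, Mpc2 0.02 with the block and 0.18 with the type 2 covariate, Pdk3 -0.08 with the block and -0.29 with the trend removed, Pfkfb4 0.31 with the type 2 covariate and Bpgm -0.06 with the trend removed. Without both libraries Slc2a3 had 0.27, Mpc1 0.11 and Pdha1 0.07. Without any 1 library the ranges were -0.84 to 0.11 for Slc2a3, -0.42 to 0.16 for Pfkfb2, -1.16 to 0.28 for Ldhb, -0.47 to 0.06 for Mpc1, -0.27 to 0.17 for Mpc2, -0.14 to 0.02 for Pdha1, -0.03 to 0.26 for Pdhb, -0.15 to 0.15 for Dlat, -0.26 to 0.43 for Pdk3, -1.25 to 0.46 for Pdk4 and -0.41 to 0.01 for Pdp1. The cause was not tested. With principal transcript lengths the mean share of Pfkl was 49.0% in WT cells and 60.7% in KO cells and that of Pfkm 28.8% and 16.4%. The means of 10 tested members lay below 20 CPM in both groups, and 6 of these had 0 counts in at least 1 library. KO replicate 1 held 0 counts of Slc2a3, Aldoc, Ldhb and Pdk4. Pdk4 had 119 counts in WT replicate 3, the shallowest library, and 0 in WT replicates 1 and 4 and KO replicate 1. Whether such zeros followed depth was not tested.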
